A study of Mus musculus with 6 samples.

Results

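The 10 genes described here carry fat and cholesterol into, through and out of macrophages: Lpl and Cd36 for uptake, Abca1, Abcg1 and Apoe for efflux, Plin2, Soat1 and Pnpla2 for storage and release, and Scd1 and Scd2 for fatty acid desaturation. They were chosen by gene symbol, and all 10 had a row among the 18019 genes of the deposited expression table. The cells were RAW264.7, a mouse macrophage line, and every library came from cells induced with lipopolysaccharide (LPS), the outer-membrane component of bacteria used to evoke M1, or inflammatory, activation. The control group was labelled untreated (n = 3 libraries), and the other group was labelled as treated with TPPU, an inhibitor of soluble epoxide hydrolase (n = 3). The descriptions of the TPPU samples also point to columns named for an sh-LIS1 knockdown, and the identity of these samples was not tested. The sources used here do not give the doses and times of LPS and TPPU, and no library without LPS was analysed here. All groups are 1 cell line in the same labelled batch, and the labels do not say whether each library had a culture of its own, so p-values cover spread between samples that may be technical only.

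Macrophages take up fatty acids freed from lipoproteins by lipoprotein lipase, and modified lipoproteins through scavenger receptors such as CD36. Surplus cholesterol is either esterified by SOAT1 and stored with triglyceride in droplets coated by perilipin 2, or exported by the transporters ABCA1 and ABCG1 to apolipoprotein acceptors. Cholesterol loading activates the nuclear receptor LXR, which induces the transporters, Apoe and lipogenic genes, and LPS is known to reshape this programme and to favour lipid droplets.

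Values are FPKM, which counts fragments relative to gene length and library size, so levels can be compared between genes. Depth was estimated at 17.95 to 23.04 M (mega) fragments per library from the step of low values, and counting intervals cover counting error alone. All 8 macrophage markers checked were detected at a mean of 1 FPKM or more, with a summed level of 1572 to 1753 in control and 1658 to 1744 with TPPU. Cd68, at 899 to 1105, made up most of this sum. Adgre1 (183 to 242 in control and 266 to 271 with TPPU) and Lyz2 (236 to 307 and 313 to 336) lay above control in every TPPU library. Of all tested genes 7.48% did so, and neither marker passed the threshold given below. The remaining macrophage markers overlapped between the groups. Fibroblast markers (5 of 5 with a row) summed to 3.13 to 7.15 and 2.88 to 3.68 FPKM, and Cd3d, the T cell marker with a row, stayed between 0 and 0.0779. Adipocyte markers (4 of 5 with a row) summed to 5.49 to 5.95 FPKM in control and 0.0476 to 6.43 with TPPU. Hepatocyte markers (5 of 5) summed to 33.7 to 69.4 and 78.5 to 145, so genes typical of other cell types were not absent. Control replicate 3 was the library least like the rest (correlations of 0.958 to 0.977 across genes) and had a mitochondrial share of 0.371% of FPKM, and TPPU replicate 1 had 0.914%, against 1.46% to 1.85% in the others. In these bulk libraries, fewer cells of a kind and less RNA per cell cannot be told apart.

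None of the 10 genes passed the threshold, an adjusted p of 0.05 over the 9728 genes that reached 1 FPKM in 3 or more libraries (limma on log2(FPKM + 1), Benjamini-Hochberg adjustment). Over all tested genes 0% passed, and the smallest adjusted p among the 10 was 0.339, for Lpl. On simulated data this fit recovered 25.4% of genes changed 1.5-fold, so not passing does not show that a gene was unchanged. All 10 passed the filter on low values. At an unadjusted p under 0.05 there were 4 of the 10, against 7.89% of all tested genes, with Lpl, Apoe and Scd2 higher and Plin2 lower with TPPU. All 3 TPPU values lay above all 3 control values for Lpl, Abcg1 and Scd2, where 7.48% of all tested genes did so. They lay below for Plin2 and Abca1, where 7.88% of all tested genes did so. The values of Cd36, Apoe, Soat1, Pnpla2 and Scd1 overlapped between the groups. The genes were picked with earlier results of these data known, so these counts are a description.

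**Figure D1:**
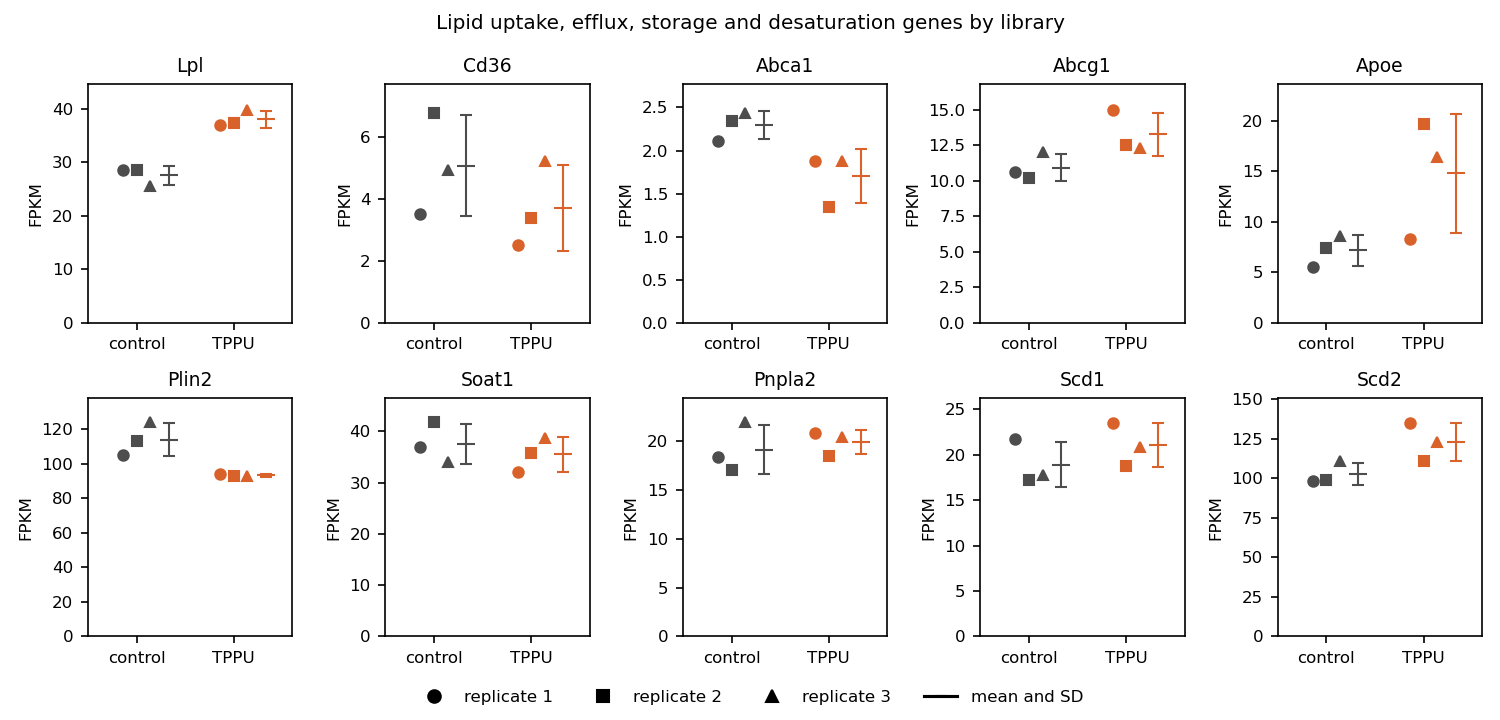
FPKM (y axis, from 0) of each of the 10 genes in the control and TPPU libraries, with 1 marker shape per replicate number and the mean and SD beside them (n = 3 per group). The TPPU libraries of Lpl sit at 36.9 to 39.8 above the controls at 25.6 to 28.6, those of Plin2 at 92.7 to 94 below the controls at 105 to 124, and those of Soat1 and Pnpla2 lie among the controls.

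Of the uptake genes, Lpl had higher values with TPPU in every library and Cd36 did not separate the groups. Lpl, on chromosome 8 (68880491 to 68907448, plus strand, mm10), encodes the secreted lipase that frees fatty acids from triglyceride-rich lipoproteins. It measured 28.6, 28.5 and 25.6 FPKM in control replicates 1, 2 and 3, and 36.9, 37.4 and 39.8 with TPPU. The lowest TPPU library was 29.1% above the highest control, and the spread within each group was small. The means were 27.5 ± 1.69 and 38 ± 1.57 FPKM (SD, n = 3 each), a ratio of 1.38. The log2 change was 0.45 (SE 0.09, 95% interval 0.24 to 0.66, limma adjusted p = 0.339), and from 0.40 to 0.48 with any 1 library left out. About 2000 to 3500 fragments per library lay behind these values, if the longest annotated transcript is taken as the length.

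Lpl is also a gene of fat cells, so adipocyte markers were read beside it. Of 5 markers, 4 had a row, and their summed level was 5.49 to 5.95 FPKM in control and 6.43, 0.0476 and 0.205 in TPPU replicates 1, 2 and 3. The Lpl values of TPPU replicates 2 and 3, where this sum was lowest, were 37.4 and 39.8, and the part of these markers in Lpl was not tested. Among the 4, Cidec and Plin1 were listed at 0 in TPPU replicates 2 and 3, and Adipoq, the adiponectin gene, at 0 in TPPU replicate 2. Cfd, the highest of the 4 in every control, measured 3.13, 3.47 and 3.58 FPKM there. With TPPU it measured 3.28, 0.0476 and 0 (log2 change -1.41, limma adjusted p = 0.564).

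Cd36, on chromosome 5 (17781690 to 17888801, minus strand), encodes the scavenger receptor and fatty acid translocase. It measured 3.53, 6.79 and 4.94 FPKM in control and 2.51, 3.4 and 5.23 with TPPU. Its values spread more widely inside each group than the means differed, with the highest library 1.93 times the lowest in control and 2.09 times with TPPU. The log2 change was -0.37 (SE 0.25, 95% interval -0.95 to 0.20, limma adjusted p = 0.718). It ranged from -0.60 without TPPU replicate 3 to -0.18 without control replicate 2 or TPPU replicate 1, and was -0.10 with sample quality weights. The low level left about 160 to 520 fragments per library, a counting error of 8% in the lowest one.

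RefSeq promoter windows, the 250 bases before a start site in GRCm38.p6, were at hand for 6 of the 10 genes: Cd36, Abca1, Apoe, Plin2, Soat1 and Pnpla2. Those of Plin2 and Abca1 are shown because every TPPU value of these genes lay below every control value, and that of Cd36 because it shares a motif with Plin2. Capitals mark matches, on either strand, to AGGTCA, the unit that nuclear receptors bind, to this unit in direct repeat with 1 base between (AGGTCANAGGTCA, up to 2 mismatches, a form bound by PPAR with RXR), to CCAAT, to TATAAA and to GGGCGG. The windows are chr4:86670060-86670309 for Plin2, chr5:17835897-17836146 for Cd36 and chr4:53159896-53160145 for Abca1, each read 5′ to 3′ along the gene on the minus strand.
Plin2: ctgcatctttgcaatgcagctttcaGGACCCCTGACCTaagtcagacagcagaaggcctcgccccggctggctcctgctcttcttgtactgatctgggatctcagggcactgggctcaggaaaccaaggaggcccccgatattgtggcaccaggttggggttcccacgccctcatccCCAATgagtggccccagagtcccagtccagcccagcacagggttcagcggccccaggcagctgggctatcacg
Cd36: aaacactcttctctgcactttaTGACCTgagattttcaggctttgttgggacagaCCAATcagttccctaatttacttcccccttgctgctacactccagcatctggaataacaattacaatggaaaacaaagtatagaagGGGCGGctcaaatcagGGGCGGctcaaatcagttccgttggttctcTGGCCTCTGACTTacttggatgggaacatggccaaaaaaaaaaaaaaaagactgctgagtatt
Abca1: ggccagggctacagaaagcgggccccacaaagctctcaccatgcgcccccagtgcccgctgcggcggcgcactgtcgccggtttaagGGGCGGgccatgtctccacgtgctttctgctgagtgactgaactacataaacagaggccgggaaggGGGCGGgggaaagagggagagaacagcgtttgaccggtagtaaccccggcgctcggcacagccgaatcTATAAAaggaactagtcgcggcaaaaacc

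The spaced repeat was matched in Plin2 and Cd36, and in 3.24% of all 32851 RefSeq windows of this length. In Plin2 the match began 225 bases before the start site and included the window's AGGTCA unit, and in Cd36 it began 63 bases before. The unit itself was in 14% of all windows, CCAAT in 33.8%, TATAAA in 12.4% and GGGCGG in 32.7%. In Abca1 the matches were TATAAA, 29 bases before the start site, and GGGCGG at 163 and 97 bases. None of the member windows held the repeat with a spacer of 4 (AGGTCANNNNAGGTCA, up to 2 mismatches, bound by LXR with RXR, in 2.57% of windows), the sterol element TCACNCCAC (1.05%) or TGACTCA (4.46%). A repeat with more than 2 mismatches was not counted, so a window without a match may still hold a site. These matches describe letters only.

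Around Lpl and Cd36, 18 other genes of lipoprotein and fatty acid uptake were tested and 0 passed, with a median log2 change of 0.04 against 0.02 over all tested genes. Of these 10 had a positive and 8 a negative change. Fabp4, a fatty acid carrier of macrophages and fat cells, measured 18.3, 20.1 and 20.2 FPKM in control and 17.7, 14.1 and 14.5 with TPPU. The adipocyte marker sum was 5.49 to 5.95 FPKM in control and 6.43, 0.0476 and 0.205 in TPPU replicates 1, 2 and 3. Its part in Fabp4 was not tested. Fabp4 was the list's lowest p, with all TPPU values below control (log2 change -0.33, SE 0.11, limma adjusted p = 0.564). Its relative Fabp5, at 156 ± 17.8 and 159 ± 3.66, overlapped between the groups. The fatty acid transporters Slc27a1 (89.2 ± 13 and 76.9 ± 5.52) and Slc27a4 (5.28 ± 0.941 and 4.17 ± 0.141) had log2 changes of -0.20 and -0.27, and the values of Slc27a4 did not overlap. Without control replicate 3 these changes were -0.09 and -0.15.

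The scavenger receptors Msr1 and Scarb1 overlapped between the groups. Msr1 measured 52.9, 59.9 and 16.8 FPKM in control and 33.3, 53.5 and 56 with TPPU. Its lowest values were in control replicate 3 and TPPU replicate 1, where the mitochondrial share was lowest too. Gene levels relative to their mean also rose with GC content in these libraries (Spearman's rho of 0.61 and 0.24). They fell with it in the others (-0.45 to -0.19). The part of either trait in the values of Msr1 was not tested. The log2 change of Msr1 was 0.29, -0.27 without control replicate 3 and 0.16 with the GC trend removed. Scarb1, the HDL receptor, measured 17 ± 1.63 and 18.5 ± 1.39 FPKM, and Mylip, a ubiquitin ligase induced by LXR, 2.55 ± 0.155 and 2.79 ± 0.544. Lipa, the lysosomal lipase, measured 39.7 ± 2.75 and 42.5 ± 2.37.

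Angptl4, the secreted inhibitor of lipoprotein lipase, stayed below the filter. It measured 1.1, 0.815 and 1.12 FPKM in control and 0.713, 0.681 and 0.333 with TPPU, with no overlap. The two-sided exact permutation test gave p = 0.1, the smallest that 3 against 3 allows. Gpihbp1, which anchors the lipase on capillaries, was not analysed here.

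Of the efflux genes, the ABC transporters lay on opposite sides: Abca1 lower and Abcg1 higher in every TPPU library. Abca1, on chromosome 4 (53030787 to 53159895, minus strand), passes cholesterol to lipid-poor apolipoprotein A-I. It measured 2.11, 2.34 and 2.43 FPKM in control and 1.88, 1.34 and 1.88 with TPPU. The highest TPPU value was 10.9% under the lowest control, and the log2 change was -0.29 (SE 0.14, 95% interval -0.61 to 0.03, limma adjusted p = 0.63), or -0.19 without TPPU replicate 2. With a pseudocount of 0.1 FPKM in place of 1 the change was -0.43, since the level is low. Its long transcript still gave about 320 to 540 fragments per library.

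Abcg1, on chromosome 17 (31057675 to 31117988, plus strand), moves cholesterol to HDL particles. It measured 10.6, 10.2 and 12 FPKM in control and 15, 12.5 and 12.3 with TPPU. The groups were separated by 2.62% only, between control replicate 3 and TPPU replicate 3. This gap was smaller than the counting error of 3% in the lowest library. The log2 change was 0.25 (SE 0.12, 95% interval -0.01 to 0.52, limma adjusted p = 0.627).

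Within a library, Abca1 stood at 0.2, 0.229 and 0.203 of Abcg1 in control and at 0.125, 0.107 and 0.153 with TPPU. This ratio does not depend on the scaling of a library, and the groups did not overlap. The log2 difference was -0.72, with p = 0.1 by a two-sided exact permutation test, the smallest possible here, and 0.15 adjusted over the 3 ratios compared. It rests on the same values as the 2 genes alone.

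**Figure D2:**
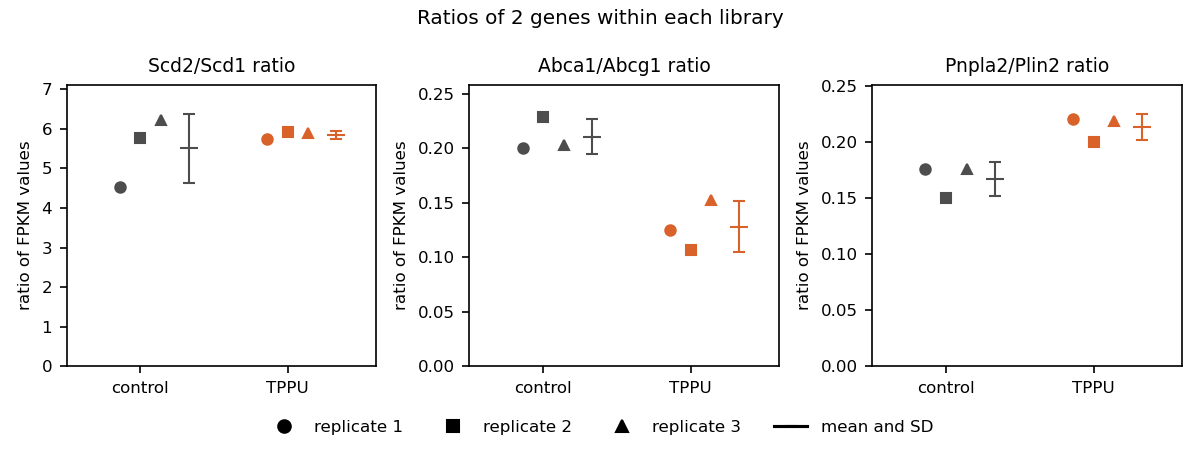
Ratio of FPKM values of 2 genes in the same library (y axis, from 0) for Scd2/Scd1, Abca1/Abcg1 and Pnpla2/Plin2 in the control and TPPU libraries, with the mean and SD (n = 3 per group). Abca1/Abcg1 lies lower and Pnpla2/Plin2 higher in all 3 TPPU libraries, while Scd2/Scd1 overlaps.

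Apoe had the largest log2 change of the 10 and the largest SE. The gene, on chromosome 7 (19696109 to 19699188, minus strand), encodes the apolipoprotein that macrophages secrete as a cholesterol acceptor. It measured 5.55, 7.42 and 8.57 FPKM in control and 8.27, 19.7 and 16.4 with TPPU. TPPU replicate 1 lay just below control replicate 3, so the groups overlapped, and TPPU replicates 2 and 3 lay well above all others. The means were 7.18 ± 1.52 and 14.8 ± 5.86 FPKM, a ratio of 2.06. The log2 change was 0.89 (SE 0.28, 95% interval 0.24 to 1.53, limma adjusted p = 0.554), and from 0.65 without TPPU replicate 2 to 1.23 without TPPU replicate 1.

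Apoc1, a neighbouring apolipoprotein gene, measured 0.608, 0.478 and 0.915 FPKM in control and 1.33, 1.95 and 1.77 with TPPU. The groups did not overlap (log2 change 0.69, SE 0.17, limma adjusted p = 0.397). Both apolipoproteins are also abundant in liver, and 5 hepatocyte markers had rows. Their summed level was 33.7, 50.3 and 69.4 FPKM in control and 78.5, 145 and 127 with TPPU, in nearly the order of Apoe across libraries. Of these Alb, the albumin gene, made up most, at 24.5, 38.1 and 59 in control and 66.4, 113 and 98.4 with TPPU. Apoa1 measured 5.46 ± 1.27 and 13 ± 6.83, Ttr 3.28 ± 0.311 and 6.85 ± 1.89, Serpina1a 1.71 ± 0.258 and 3.92 ± 1.71, and Apob 0.175 ± 0.0341 and 0.455 ± 0.246. None of the 5 was at 0 in all libraries, and their part in the values of Apoe and Apoc1 was not tested.

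**Figure D3:**
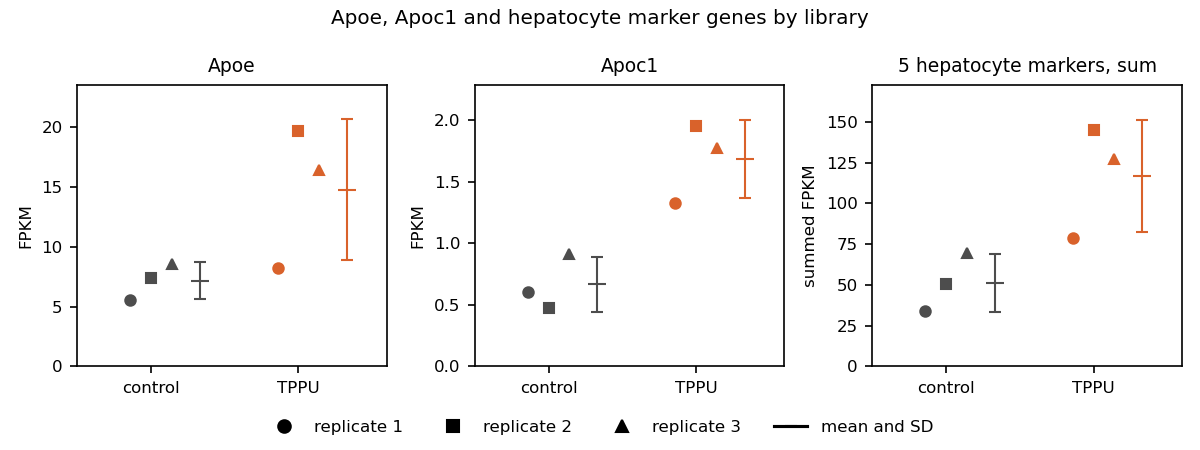
FPKM (y axis, from 0) of Apoe, of Apoc1 and of the sum of 5 hepatocyte markers in the control and TPPU libraries, with the mean and SD (n = 3 per group). TPPU replicates 2 and 3 are the highest libraries in all 3 panels, at 19.7 and 16.4 for Apoe and at 145 and 127 for the marker sum.

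Among 16 other genes of cholesterol efflux and trafficking 0 passed, 8 had a positive and 8 a negative change, and the median was -0.01. Npc1, which exports cholesterol from lysosomes, measured 23.5, 27.2 and 32.7 FPKM in control and 22.9, 21.7 and 21.9 with TPPU, with no overlap (log2 change -0.30, SE 0.12, limma adjusted p = 0.615). The change was -0.18 without control replicate 3 and -0.15 with sample quality weights. The LXR genes overlapped between the groups. Nr1h2 measured 18.4 ± 3.91 and 16 ± 0.822, and Nr1h3, below the filter, 0.769 ± 0.0735 and 0.614 ± 0.0945. Pltp, which transfers phospholipid to HDL, measured 5.54 ± 0.881 and 6.67 ± 0.761, and the transporter Abca7 19.7 ± 2.63 and 16.8 ± 1.25, and both overlapped.

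Of the storage genes, Plin2 was lower in every TPPU library and Soat1 and Pnpla2 were not separated. Plin2, on chromosome 4 (86648386 to 86670060, minus strand), encodes the main droplet coat protein of macrophages. It measured 105, 113 and 124 FPKM in control and 94, 92.7 and 93 with TPPU. The TPPU libraries were within 1.01 times of each other while the controls spread 1.19 times. The means were 114 ± 9.83 and 93.2 ± 0.698 FPKM, a ratio of 0.818. The log2 change was -0.28 (SE 0.09, 95% interval -0.49 to -0.08, limma adjusted p = 0.537), or -0.22 without control replicate 3, which held the highest value.

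Soat1, on chromosome 1 (156424525 to 156474331, minus strand), encodes the enzyme that esterifies cholesterol for storage. It measured 37, 41.8 and 34 FPKM in control and 32, 35.8 and 38.8 with TPPU, so high and low libraries occurred in both groups. The log2 change was -0.08 (SE 0.11, 95% interval -0.34 to 0.18, limma adjusted p = 0.864).

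Pnpla2, on chromosome 7 (141455198 to 141460743, plus strand), encodes ATGL, the lipase that starts the breakdown of stored triglyceride. It measured 18.4, 17 and 21.9 FPKM in control and 20.8, 18.5 and 20.4 with TPPU. The highest and the lowest library were both controls, and the log2 change was 0.06 (SE 0.12, 95% interval -0.20 to 0.33, limma adjusted p = 0.892). Set against the droplet coat in the same library, Pnpla2 stood at 0.176, 0.15 and 0.176 of Plin2 in control and at 0.221, 0.2 and 0.219 with TPPU. The groups did not overlap, with a log2 difference of 0.35 (two-sided exact permutation p = 0.1, the smallest possible here, 0.15 adjusted over the 3 ratios). This ratio rests on the same values as the 2 genes alone, of which Plin2 separated the groups and Pnpla2 did not.

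Of 18 other droplet and lipolysis genes tested 0 passed, 6 had a positive and 12 a negative change, and the median was -0.04, or 0.01 without control replicate 3. Hilpda, a droplet protein that inhibits ATGL, measured 58.5, 59.2 and 64.3 FPKM in control and 47.4, 53 and 50.6 with TPPU. It lay below control in every library (log2 change -0.26, SE 0.09, limma adjusted p = 0.564). G0s2, another ATGL inhibitor, was below the filter and lay above, at 0.13, 0.408 and 0.12 in control and 0.756, 0.655 and 0.649 with TPPU (two-sided exact permutation p = 0.1). The values of control replicates 1 and 3 lay under what 3 fragments in 1 kb are worth there (0.1671 and 0.1558 FPKM). Abhd5, the ATGL activator, measured 7.78 ± 2.24 and 7.92 ± 1.28 FPKM and overlapped.

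Dgat1 and Dgat2, of the last step of triglyceride synthesis, had changes of opposite sign. Their 95% intervals (-0.44 to 0.05 and -0.14 to 0.42) both included 0. Dgat1 measured 6.9, 6.66 and 6.87 FPKM in control and 5.8, 6.41 and 5.32 with TPPU, and its counterpart Dgat2 had means of 2.05 ± 0.193 and 2.36 ± 0.07. The values of Dgat1 lay below and those of Dgat2 above control without overlap, with log2 changes of -0.19 and 0.14 and limma adjusted p of 0.667 and 0.769. Plin3, a coat protein of small droplets, measured 12.8 ± 1.37 and 12.4 ± 0.988, and the lipase gene Lipe 2.08 ± 0.441 and 1.75 ± 0.344. Cidec, a droplet fusion gene of fat cells and one of the adipocyte markers above, measured 1.25, 1 and 0.762 FPKM in control and 1.45 in TPPU replicate 1, and was listed at 0 in the other TPPU libraries.

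The desaturases Scd1 and Scd2 put the double bond into saturated fatty acids, and both lie on chromosome 19 (44394455 to 44407879, minus strand, and 44293674 to 44306864, plus strand). They are paralogs, so how reads could be told apart bears on their values. Their GENCODE coding sequences matched at 962 of 1065 aligned bases (90.3%), with a longest identical run of 147 bases. Of the 50-base windows of the whole Scd1 transcript, 3.03% also occurred in Scd2. The stretch below shows where they part, at coding bases 75 to 164 of Scd1 and 84 to 173 of Scd2 counted from the A of the start codon, with the 30 differing bases in capitals.
Scd1: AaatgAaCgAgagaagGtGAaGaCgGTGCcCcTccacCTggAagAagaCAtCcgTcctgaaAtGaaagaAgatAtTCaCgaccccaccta
Scd2: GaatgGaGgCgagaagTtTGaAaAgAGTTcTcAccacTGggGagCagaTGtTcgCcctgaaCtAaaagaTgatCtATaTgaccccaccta

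Scd2 measured 98.3, 98.9 and 111 FPKM in control and 135, 111 and 123 with TPPU. The groups were apart by 0.0341% only, between control replicate 3 and TPPU replicate 2, so the separation is within counting error. The means were 103 ± 6.91 and 123 ± 12.1 FPKM, and the log2 change was 0.26 (SE 0.10, 95% interval 0.02 to 0.49, limma adjusted p = 0.596). Scd1 measured 21.7, 17.2 and 17.8 FPKM in control and 23.5, 18.7 and 20.9 with TPPU. Its groups overlapped (log2 change 0.15, SE 0.13, 95% interval -0.14 to 0.44, limma adjusted p = 0.768). Scd2 stood at 4.53, 5.76 and 6.22 times Scd1 in control and at 5.74, 5.91 and 5.88 times with TPPU, so Scd2 was the more abundant form in all 6 libraries. This ratio overlapped between the groups (log2 difference 0.10, two-sided exact permutation p = 0.8, 0.8 adjusted over the 3 ratios).

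Of 16 other genes of fatty acid synthesis and desaturation 0 passed, 11 had a positive and 5 a negative change, and the median was 0.10. Fasn, fatty acid synthase, measured 12.5 ± 1.78 and 14.9 ± 0.912 FPKM and overlapped. Acaca, which makes malonyl-CoA for it, measured 4.6, 5.1 and 4.92 FPKM in control and 6.06, 5.62 and 5.58 with TPPU, without overlap (log2 change 0.20, SE 0.10, limma adjusted p = 0.651). Srebf1, the lipogenic transcription factor, measured 23.6 ± 3.16 and 25.2 ± 2.77. Elovl6, an elongase, measured 5.13, 3.8 and 2.1 FPKM in control and 4.71, 5.22 and 5.25 with TPPU, and its low value was that of control replicate 3 (log2 change 0.43, or 0.16 without that library). Fads3 measured 2.18 ± 0.352 and 1.59 ± 0.281 and lay below control in every TPPU library (log2 change -0.29, SE 0.15, limma adjusted p = 0.644).

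**Figure D4:**
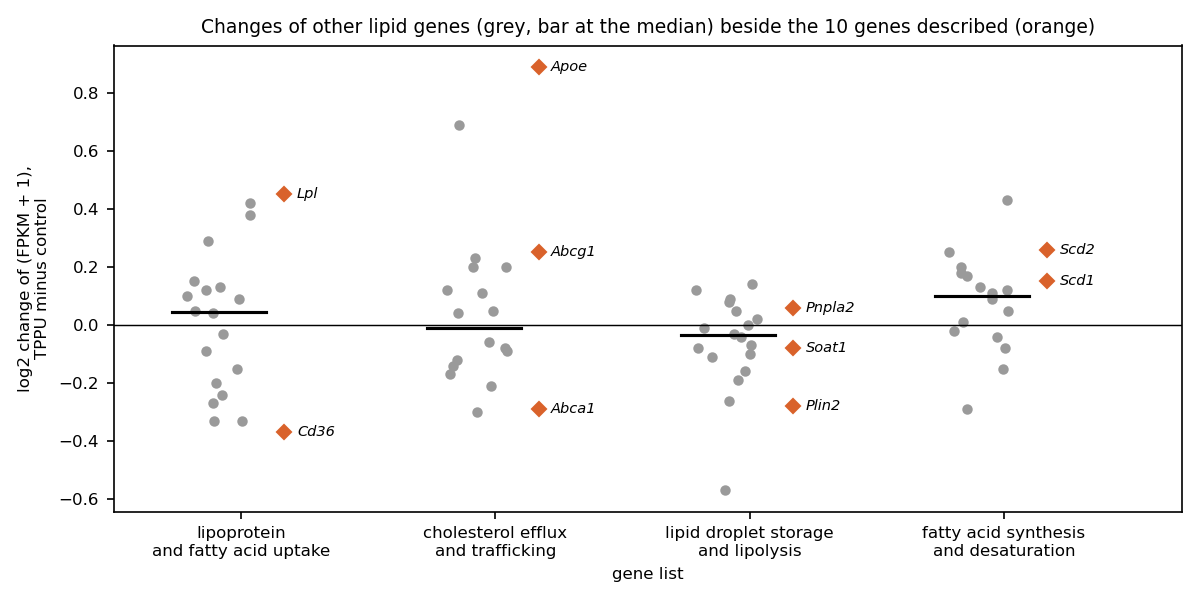
log2 change of (FPKM + 1), TPPU minus control (y axis), for the tested genes of 4 lipid lists (x axis). Grey points are the 68 other genes with a bar at their median, and orange diamonds the 10 genes described. The medians lie between -0.04 and 0.10.

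Over the 4 lists together, 68 of 97 other genes were tested, and 0 passed in either direction. At an unadjusted p under 0.05 there were 1 higher gene, Apoc1, and 3 lower, Fabp4, Hilpda and Npc1, against 7.89% of all tested genes. All TPPU values lay above all controls for 5 and below for 7 of the 68, against 7.48% and 7.88%.

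**Figure D5:**
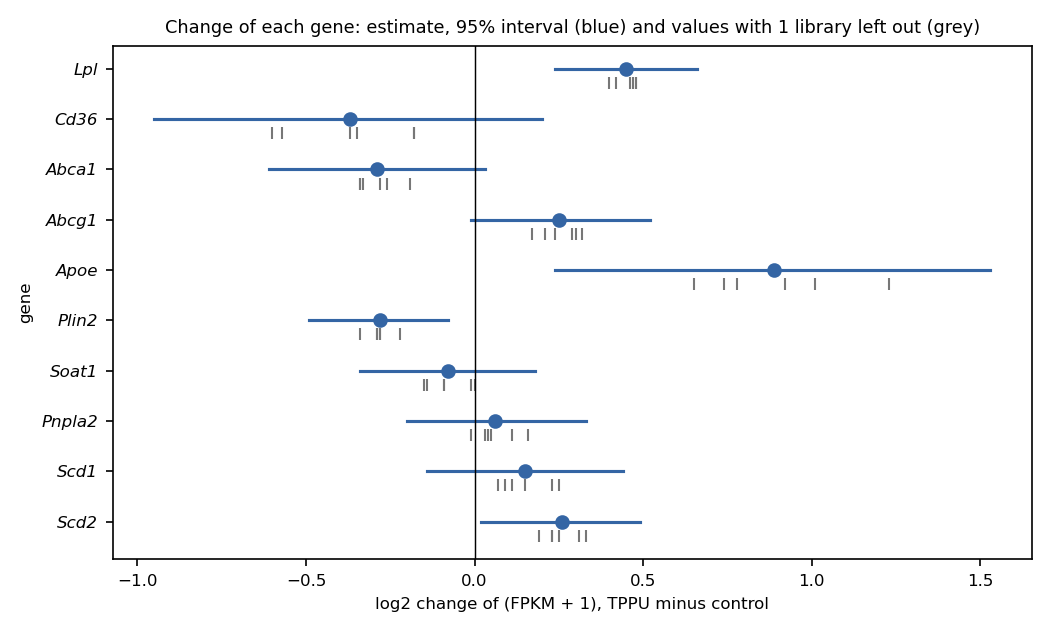
log2 change of (FPKM + 1), TPPU minus control (x axis), of the 10 genes, with the 95% interval from limma as a blue line and the values with 1 library left out as grey ticks. The intervals of Lpl, Apoe, Plin2 and Scd2 leave out 0 before adjustment over all genes, and those of the other 6 include it.

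In level, Scd2 and Plin2 led the 10 genes, with means over the 6 libraries of 113 ± 14.2 and 104 ± 13 FPKM. Plin2 was the higher in all 3 controls and Scd2 in all 3 TPPU libraries, and Plin2 lay above 96.3% of tested genes. Soat1 (36.6 ± 3.47) and Lpl (32.8 ± 5.93) followed, with Soat1 the higher in all 3 controls and Lpl in all 3 TPPU libraries. These orders restate the group differences above, which did not pass the threshold. Scd1 (20 ± 2.47) and Pnpla2 (19.5 ± 1.82) had overlapping ranges. Abcg1 (12.1 ± 1.69) and Apoe (11 ± 5.66) overlapped too, as did Apoe and Cd36 (4.4 ± 1.55), although Apoe was above Cd36 in all 6 libraries. Abca1 was lowest at 2 ± 0.395, with no overlap with Cd36.

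Of all tested genes, the 3 whose pattern over the 6 libraries was most like that of Lpl were Nit2, Suclg2 and Chchd1 (Pearson's r of log2(FPKM + 1) of 0.9918, 0.9884 and 0.9881). Nit2 encodes an amidase, Suclg2 a subunit of succinyl-CoA ligase and Chchd1 a protein of the mitochondrial ribosome. Chchd1 measured 25.6, 24.8 and 22.8 FPKM in control and 34.1, 37.9 and 37.7 with TPPU. The points share libraries and depth, and the genes were the closest of 9728, so this is a description.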

How the data were processed

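The authors deposited 1 table of FPKM for 18019 gene symbols in 6 poly(A), strand-marked libraries of RAW264.7 cells (unit read from the table's name and its range). Per the submitters' processing notes the reads were placed on mm10. The sources used here name no aligner, counter, annotation or filter. Library names in the labels tied each column to its sample. The descriptions of the TPPU samples also point to columns named for an sh-LIS1 knockdown in another table, which was not used here.

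The 9728 genes that reached 1 FPKM in 3 or more libraries were compared as log2(FPKM + 1) with limma 3.58.1 under R 4.3.3 (mean-variance trend, two-sided), with Benjamini-Hochberg adjustment over all of them and a threshold of 0.05. Fold changes on this scale understate low genes. Genes under the filter, and 3 ratios, went through an exact permutation test (two-sided), whose smallest p is 0.1. The 10 genes, the 4 lists and the ratios were chosen with earlier results of these data known. Genes named were the 10, 22 partners whatever their values (1 is not reported here), the 2 other genes of smallest p per list, and the 3 most like Lpl. Marker genes, and genes named only because their groups did not overlap or their count was small, were named beside these. Depth came from the step of low FPKM in genes with 1 transcript, where 93.31% to 95.15% of values were whole within 0.1. Positions are 1-based, from GENCODE M21 (mm10). Promoters are RefSeq's (GRCm38.p6). The fit was tested on simulated data with the gene means and spreads of these libraries. It recovered 25.4% of genes changed 1.5-fold, 84.4% of those changed 2-fold and 96.7% of those changed 4-fold. Python 3.11.15, numpy 2.4.6, pandas 2.3.3, scipy 1.17.1, Biopython 1.88 and matplotlib 3.10.9 were used. Alternatives were pseudocount 0.1, quantile normalization, median-of-ratios scaling, all genes unfiltered, a minimum mean of 5 FPKM, sample quality weights, GC or length trends removed (loess, span 0.3), a replicate block and each library left out.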

Additional observations from a re-analysis of the deposited data

How the results depend on the processing

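With sample quality weights, which gave control replicate 3 a weight of 0.191 and control replicate 1 of 3.84, 89 genes were called higher and 80 lower in limma over all genes, against 0 and 0. Among them were 2 of the 10 genes, Lpl (log2 change 0.41, limma adjusted p = 0.0232; range over alternatives 0.0232 to 0.921) and Apoe (1.29, adjusted p = 0.0305; range 0.0305 to 0.989), and 1 other lipid gene, Apoc1 (0.80, adjusted p = 0.0253; range 0.0253 to 0.975). With a GC trend removed 0 were higher and 1 lower. Leaving out 1 library gave 0 to 5 higher and 0 to 1 lower over all genes, with the 5 and 1 without TPPU replicate 1, and 0 of the 10 genes. The 10 log2 changes kept their direction in 146 of 148 comparisons with the alternatives. The exceptions were Scd1 with quality weights (-0.04) and Pnpla2 with 1 library left out (-0.01 to 0.16). Abca1 and Cd36 have no value at a mean of at least 5 FPKM. Directions also turned with quality weights for Msr1 (-0.05) and Plin3 (0.03), and with the GC trend removed for Abhd5 (-0.02). With 1 library left out the ranges included both signs for Msr1 (-0.27 to 0.61), Mylip (-0.03 to 0.17), Fabp5 (-0.04 to 0.12), Plin3 (-0.12 to 0.03) and Abhd5 (-0.16 to 0.22), and for the Scd2/Scd1 ratio (-0.03 to 0.20). The causes were not tested. With the replicate number as a block 0 genes were called. Samples with the same number did not deviate together (correlations of -0.301, 0.154 and -0.399). Across all pairs of a control and a TPPU library the correlations ran from -0.448 to 0.506. The highest was that of control replicate 3 with TPPU replicate 1. These deviations are from means of 3 libraries, so they cannot settle whether the numbers pair the samples. Depth limits Apoe, Cd36 and Abca1 most, with counting errors of 8.4%, 8% and 5.6% in their lowest libraries.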
